A study of Mus musculus with 2 samples.

Results

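Heart muscle draws most of its energy from fatty acids that arrive in the blood, and 9 genes that act on the way from the capillary lumen to the myocyte were followed here: Lpl, Gpihbp1, Vldlr, Cd36, Slc27a1, Fabp4, Fabp5, Rbp7 and Fabp3. They were taken by symbol from the 32245 features of both deposited matrices, and all 9 had UMIs (unique molecular identifiers, 1 per captured RNA molecule) in both libraries. Single nuclei of cardiac tissue from male C57Bl6/J mice aged 3.5 months were sequenced with the 10x Genomics Chromium 3′ v3 kit, as 1 CF-KI library and 1 control library. The CF-KI genotype was Tcf21-MerCreMer;Nlrp3-A350V/A350V, which makes the inflammasome sensor NLRP3 constitutively active in fibroblasts, and the control genotype was Tcf21-MerCreMer;Nlrp3-WT/WT. Both carried the tamoxifen-dependent Cre driven from Tcf21, a gene of cardiac fibroblasts, and both received tamoxifen. In cells without Cre the mutant allele is silenced, so that cardiomyocytes and endothelial cells of CF-KI hearts are not meant to carry the active protein. The labels do not say how many animals went into a library.

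With 1 library per genotype, no test between genotypes was possible, and every difference below compares 2 libraries. The 95% intervals given here reflect counting error alone, because the nuclei or UMIs of 1 library do not replicate a genotype. The deposited matrices held 21603653 UMIs in 15077 barcodes for CF-KI and 18040776 UMIs in 11257 barcodes for the control. Of these, 9428 and 9711 nuclei were kept, after limits of 200 genes and of 20% mitochondrial UMIs. The libraries stood apart in mitochondrial RNA, whose median share per deposited barcode was 14.2% in CF-KI versus 3.46% in the control. Only 46 barcode sequences occurred in both libraries. Nlrp3 itself had 30 UMIs in CF-KI, spread over 7 of the 9 classes described here, and 17 in the control, all in macrophage-like nuclei, and gene counts do not show the A350V change. Levels are CPM, a gene's share of the non-mitochondrial UMIs of a class multiplied by 1000000. The 9 classes described had at least 50 nuclei in each library and are called -like since only marker RNA identifies them.

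Lipoprotein lipase, encoded by Lpl, is made by myocytes and adipocytes and releases fatty acids from the triglycerides of circulating lipoproteins. GPIHBP1, a protein of capillary endothelium, carries the enzyme to the lumen, and the VLDL receptor, encoded by Vldlr, binds triglyceride-rich lipoproteins. CD36 and FATP1, encoded by Slc27a1, help fatty acids across cell membranes, and small cytosolic binding proteins (FABP4 and FABP5 in capillary endothelium, FABP3 in muscle) carry them inside the cell. RBP7 is a retinol-binding protein of the same family that is known from capillary endothelium and fat. Several of these genes are known targets of the PPAR nuclear receptors, which bind as partners of RXR to repeats of the half-site AGGTCA.

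On GRCm38, Slc27a1 (chromosome 8, 71568882 to 71587302, plus strand) and Vldlr (chromosome 19, 27216484 to 27254231, plus strand) were the members that were lower in CF-KI cardiomyocyte-like nuclei. Cd36 (chromosome 5, 17781690 to 17888801, minus strand) was highest in endothelial-like nuclei. The 250 bases before a RefSeq start of each (GRCm38.p6) are shown for this reason, 5′ to 3′ on the gene's strand, with the half-site in capitals.
Slc27a1, chr8:71568621-71568870, plus strand: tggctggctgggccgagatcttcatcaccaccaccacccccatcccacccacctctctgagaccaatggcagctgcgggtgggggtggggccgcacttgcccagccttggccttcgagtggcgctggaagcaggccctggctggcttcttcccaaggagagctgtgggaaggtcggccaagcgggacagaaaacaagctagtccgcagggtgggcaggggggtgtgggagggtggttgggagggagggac
Vldlr, chr19:27216234-27216483, plus strand: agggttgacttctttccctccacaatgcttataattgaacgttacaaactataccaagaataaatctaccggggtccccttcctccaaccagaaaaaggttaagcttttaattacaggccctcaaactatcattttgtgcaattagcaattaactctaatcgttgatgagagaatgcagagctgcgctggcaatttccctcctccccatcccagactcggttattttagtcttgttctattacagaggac
Cd36, chr5:17835897-17836146, minus strand: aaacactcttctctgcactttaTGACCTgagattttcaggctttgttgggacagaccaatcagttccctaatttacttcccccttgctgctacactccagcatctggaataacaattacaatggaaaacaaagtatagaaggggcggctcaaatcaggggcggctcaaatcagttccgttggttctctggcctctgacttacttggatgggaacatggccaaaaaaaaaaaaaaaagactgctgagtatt
The Cd36 start used by RefSeq lies inside the annotated gene. Promoter windows (250 bases before a start to 50 after it) were given for 5 of the 9 members, with 8 windows in all. The motif AGGTCA, searched on both strands, occurred in 1 of these windows, that of Cd36, at bases 23 to 28 on the opposite strand. It occurred in 16.3% of the 32851 windows of all genes. The spaced repeat AGGTCANAGGTCA, which contains the half-site, occurred in no window of a member and in 0.0396% of all windows. TATAAA occurred in 13.6% of all windows and in no window of a member. These counts describe the letters in the windows and say nothing about binding.

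Across classes, 4 members (Gpihbp1, Cd36, Fabp4 and Rbp7) were at least 2-fold higher in endothelial-like nuclei than in any other class in both libraries. Of the 10147 genes with at least 100 UMIs in each library, 1.71% met this rule. Vldlr met it in cardiomyocyte-like nuclei, as did 1.98% of genes, and Slc27a1 met it in adipocyte-like nuclei, as did 1.70%. Lpl, Fabp5 and Fabp3 met it in no class. The plot of levels by class shows all 9 genes in both libraries.

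**Figure D1:**
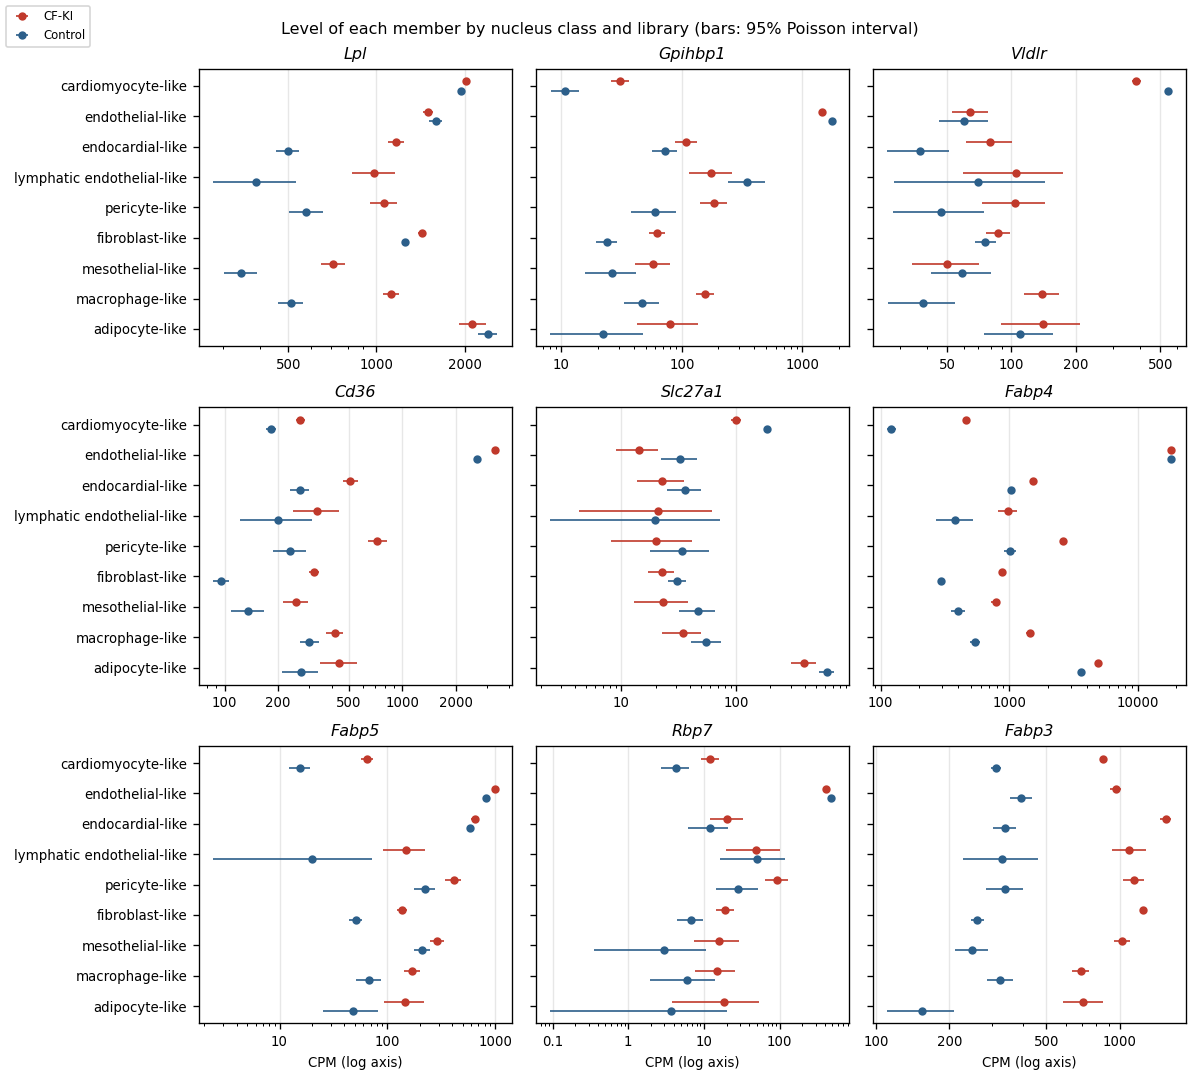
Level of each gene (CPM, log axis) in the 9 nucleus classes, with CF-KI in red and control in blue and bars for the 95% Poisson interval. Gpihbp1, Cd36, Fabp4 and Rbp7 stand highest in endothelial-like nuclei, Vldlr in cardiomyocyte-like and Slc27a1 in adipocyte-like nuclei, while Fabp3 lies between 691 and 1544 CPM in every CF-KI class and between 154 and 393 CPM in every control class.

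Lpl was highest in adipocyte-like nuclei, at 2128 CPM (interval 1910 to 2363) in CF-KI versus 2396 CPM (2216 to 2587) in the control. Cardiomyocyte-like nuclei followed with 2024 CPM (1982 to 2068) in CF-KI versus 1950 CPM (1914 to 1987) in the control, and the intervals of these 2 classes overlapped in CF-KI but not in the control. Cardiomyocyte-like nuclei held 45.5% of all Lpl UMIs in CF-KI versus 55.1% in the control, and fibroblast-like nuclei held 19.9% and 25.1%. Endothelial-like nuclei read 1505 CPM in CF-KI versus 1591 CPM in the control, and fibroblast-like nuclei read 1432 and 1255 CPM. The lowest class in both libraries was mesothelial-like, at 711 CPM in CF-KI versus 346 CPM in the control. Lpl differed by no more than counting error between the libraries in adipocyte-like nuclei (log2 ratio of CF-KI over control −0.17, −0.36 to 0.02) and in endothelial-like nuclei as a whole (−0.08, −0.17 to 0.01). Within 4 strata of endothelial-like nuclei by mitochondrial share, however, Lpl was lower in CF-KI in each (−0.41 at 1 to 5%, −0.23 at 5 to 10%, −0.09 at 10 to 20% and −0.53 over 20%), with 3 of the intervals below 0. The clusters of this class went opposite ways. Lpl was lower in CF-KI in the cluster led by capillary genes (−0.18, −0.29 to −0.07) and higher in the other (0.24, 0.05 to 0.43). In cardiomyocyte-like nuclei the ratio was 0.05 (0.01 to 0.09), and its sign turned with TMM scaling (trimmed mean of M-values, edgeR), to −0.10. In the other 6 classes the Lpl ratio was above 0 with its whole interval, from 0.19 in fibroblast-like to 1.34 in lymphatic endothelial-like nuclei. Free RNA (RNA of lysed cells caught in a droplet) was estimated at 1279 CPM of Lpl in CF-KI macrophage-like nuclei, above the 1122 measured. The CF-KI estimate was 836 of 984 CPM in lymphatic endothelial-like, 893 of 1059 in pericyte-like and 924 of 1163 in endocardial-like nuclei. It was 589 of 711 CPM in mesothelial-like and 680 of 1432 in fibroblast-like nuclei. Control estimates lay below the measured levels. Their part in these ratios was not tested.

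Within cardiomyocyte-like nuclei, Lpl differed between chambers. A subcluster of 18 CF-KI and 84 control nuclei had all 6 atrial markers raised (among them Nppa and Sln). Its Lpl level was 1066 CPM in the control, against 1975 CPM in the other 2102 cardiomyocyte-like nuclei, a log2 ratio of −0.89 (−1.12 to −0.67). In CF-KI it was 879 CPM (29 UMIs) against 2033 CPM, a log2 ratio of −1.21 (−1.79 to −0.69). Both libraries therefore showed less Lpl in the atrial subcluster. Gpihbp1 went the other way in the control, at 38.5 CPM (6 UMIs) in atrial and 10.0 CPM in other nuclei (log2 ratio 1.94, 0.44 to 3.16), and had 0 UMIs in the atrial nuclei of CF-KI. For Vldlr, Cd36, Fabp4, Fabp5 and Fabp3 the intervals of this ratio included 0 in both libraries. Slc27a1 read 218 CPM in atrial and 187 CPM in other cardiomyocyte-like nuclei of the control, and had 0 UMIs in the 18 atrial nuclei of CF-KI, where 3 UMIs would be 90.9 CPM.

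Gpihbp1 was highest in endothelial-like nuclei, which held 78.0% of its UMIs in CF-KI versus 82.1% in the control. The level there was 1443 CPM (1387 to 1502) in CF-KI versus 1754 CPM (1670 to 1840) in the control, a log2 ratio of −0.28 (−0.37 to −0.19). In the control the next class was lymphatic endothelial-like, at 350 CPM (244 to 486, 35 UMIs). The other 7 control classes lay between 10.8 and 72.1 CPM. In CF-KI the next classes, pericyte-like at 185 CPM and lymphatic endothelial-like at 176 CPM, had overlapping intervals. Cardiomyocyte-like nuclei were lowest in both libraries, at 30.9 CPM in CF-KI versus 10.8 CPM in the control. Gpihbp1 was thus lower in CF-KI in endothelial-like and lymphatic endothelial-like nuclei (log2 ratio −0.99, −1.79 to −0.21) and higher in the 7 other classes, each with the whole interval on its side of 0. The CF-KI free RNA estimate was above the measured level in cardiomyocyte-like, endocardial-like, fibroblast-like (113 against 62.2 CPM), mesothelial-like, macrophage-like and adipocyte-like nuclei. In pericyte-like nuclei it was below that level (149 against 185 CPM). In the control it was above the measured level in cardiomyocyte-like, fibroblast-like and adipocyte-like nuclei. The part of free RNA in these ratios was not tested.

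Vldlr was highest in cardiomyocyte-like nuclei, at 386 CPM (367 to 405, 1622 UMIs) in CF-KI versus 544 CPM (525 to 564, 3069 UMIs) in the control. The intervals did not overlap, and the log2 ratio was −0.50 (−0.58 to −0.41). All other classes lay between 49.9 and 141 CPM in CF-KI, against 37.1 to 110 CPM in the control. Neighbours in the order of these 8 classes had overlapping intervals in both libraries. In 3 of these classes Vldlr was higher in CF-KI with the whole interval above 0, led by macrophage-like nuclei with a log2 ratio of 1.85 (1.28 to 2.47, 113 and 32 UMIs). There the estimate of free RNA alone gave 158 CPM of Vldlr in CF-KI versus 61.6 CPM in the control, above the 139 and 38.5 CPM measured.

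Cd36 was highest in endothelial-like nuclei, at 3333 CPM (3246 to 3421) in CF-KI versus 2621 CPM (2519 to 2726) in the control. The log2 ratio was 0.35 (0.28 to 0.42). These nuclei held 61.5% of Cd36 UMIs in CF-KI versus 51.7% in the control, and cardiomyocyte-like nuclei held 12.3% and 21.4%. In cardiomyocyte-like nuclei Cd36 read 266 CPM (251 to 282) in CF-KI versus 182 CPM (171 to 194) in the control. The log2 ratio there was 0.54 (0.42 to 0.67), and it was −0.27 after free RNA was subtracted. The cardiomyocyte-like level was below pericyte-like nuclei (723 and 232 CPM) and endocardial-like nuclei (510 and 264 CPM). The lowest class was mesothelial-like in CF-KI (251 CPM) and fibroblast-like in the control (95.4 CPM). Cd36 was higher in CF-KI in 9 of 9 classes, with 8 intervals above 0 and log2 ratios from 0.35 to 1.74 (fibroblast-like). The CF-KI free RNA estimate was above the measured level in fibroblast-like (331 against 318 CPM) and macrophage-like nuclei (623 against 416 CPM). This also held in lymphatic endothelial-like (407 against 330 CPM) and mesothelial-like nuclei (287 against 251 CPM). In the other CF-KI classes and in the control the estimate was below the level measured. The part of free RNA in these ratios was not tested.

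Slc27a1 was highest in adipocyte-like nuclei, at 391 CPM (301 to 500, 64 UMIs) in CF-KI versus 619 CPM (529 to 720, 169 UMIs) in the control. Cardiomyocyte-like nuclei came second and held most of its UMIs, 64.8% in CF-KI versus 68.6% in the control. Their level was 99.9 CPM (90.6 to 110, 420 UMIs) in CF-KI versus 188 CPM (177 to 200, 1062 UMIs) in the control, with no overlap, and the log2 ratio was −0.91 (−1.08 to −0.75). The other 7 classes lay between 14.3 and 34.5 CPM in CF-KI, against 19.98 to 55.4 CPM in the control. Slc27a1 was lower in CF-KI in 8 of 9 classes, and in 4 of them (cardiomyocyte-like, adipocyte-like, endothelial-like and mesothelial-like) the whole interval was below 0. For endothelial-like nuclei the free RNA estimate exceeded the measured level (CF-KI 24.0 against 14.3 CPM, control 34.0 against 32.7 CPM). Mesothelial-like levels exceeded the estimate (CF-KI 23.4 against 20.4 CPM, control 47.1 against 17.9 CPM), as did cardiomyocyte-like and adipocyte-like levels. How far free RNA shaped the Slc27a1 ratios was not tested. After each nucleus was thinned to 500 UMIs, 4.92% (4.08 to 5.87) of CF-KI and 9.52% (8.32 to 10.8) of control cardiomyocyte-like nuclei had a Slc27a1 UMI. In fibroblast-like nuclei the same shares were 1.03% and 1.87%, where the median non-mitochondrial depth was 784.5 and 959 UMIs per nucleus, against 1582 and 2274 in cardiomyocyte-like nuclei. Unthinned, the cardiomyocyte-like shares were 15.5% and 35.7%.

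Fabp4 gave the most UMIs of the 9 genes. Endothelial-like nuclei held 75.8% of them in CF-KI versus 76.4% in the control, and their levels were equal within counting error, at 17998 CPM (17796 to 18202) and 18003 CPM (17734 to 18275). Adipocyte-like nuclei, where FABP4 is the classic fat-cell binding protein, came second at 4946 CPM in CF-KI versus 3638 CPM in the control (log2 ratio 0.44, 0.31 to 0.58). Cardiomyocyte-like nuclei were lowest in both libraries, at 461 CPM (441 to 482) in CF-KI versus 121 CPM (112 to 130) in the control. In the 8 classes other than endothelial-like, Fabp4 was higher in CF-KI with the whole interval above 0, and the log2 ratio reached 1.93 (1.80 to 2.06) in cardiomyocyte-like nuclei. The CF-KI free RNA estimate was above the measured level in fibroblast-like nuclei (1451 against 875 CPM). The same held for cardiomyocyte-like, endocardial-like, lymphatic endothelial-like, mesothelial-like and macrophage-like nuclei, but not for pericyte-like and adipocyte-like nuclei. In the control it held for cardiomyocyte-like nuclei alone. The part of free RNA in these ratios was not tested.

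Fabp5 was highest in endothelial-like nuclei, at 998 CPM (951 to 1047) in CF-KI versus 825 CPM (768 to 885) in the control. Endocardial-like nuclei, whose cells line the chambers, came second at 651 CPM in CF-KI versus 589 CPM in the control, so that the endothelial-like level was 1.53-fold and 1.40-fold higher. For Gpihbp1 the endocardial-like level was much further below its endothelial-like level, at 109 CPM in CF-KI versus 72.1 CPM in the control. In cardiomyocyte-like nuclei Fabp5 was lowest in both libraries, at 64.7 CPM in CF-KI versus 15.4 CPM in the control (87 UMIs), a log2 ratio of 2.07 (1.72 to 2.43). Free RNA alone was estimated to give most of either level (CF-KI 52.4 of 64.7 CPM, control 11.9 of 15.4 CPM). How far it shaped this Fabp5 ratio was not tested.

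Rbp7 had 883 UMIs in CF-KI versus 548 in control over all kept nuclei, the fewest of the 9 genes in the control, while Slc27a1 had fewer in CF-KI (648). Endothelial-like nuclei read 411 CPM (381 to 443) in CF-KI versus 484 CPM (441 to 530) in the control and held 78.3% and 83.8% of its UMIs. Their log2 ratio was −0.24 (−0.41 to −0.06). The next class was pericyte-like in CF-KI, at 92.6 CPM (32 UMIs), and lymphatic endothelial-like in the control, at 49.95 CPM (5 UMIs). Cardiomyocyte-like nuclei read 12.1 CPM (51 UMIs) in CF-KI versus 4.25 CPM (24 UMIs) in the control.

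Fabp3, the muscle binding protein gene, was not highest in cardiomyocyte-like nuclei. They read 855 CPM (828 to 884) in CF-KI versus 311 CPM (297 to 326) in the control. Endocardial-like nuclei read 1544 CPM and fibroblast-like nuclei 1251 CPM in CF-KI, both above cardiomyocyte-like nuclei, and endothelial-like nuclei (393 CPM, 354 to 435) led in the control. Fabp3 was higher in CF-KI in 9 of 9 classes, with every interval above 0 and log2 ratios from 1.09 in macrophage-like to 2.27 in fibroblast-like nuclei. Fabp3 (chromosome 4, 130308595 to 130315463, plus strand) overlaps Gm10570 and Zcchc17 on the opposite strand, and whether counting used the strand is not given in the sources used here. Processed pseudogenes of Fabp3 and Fabp5 (Fabp3-ps1 and Fabp5l2) are annotated but are not features of the matrices, so reads shared with them may be missing from both genes.

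Every class held RNA of markers of other cell types, in amounts that differed between the libraries. The 8 cardiomyocyte markers summed to between 7214 and 15284 CPM in the 8 other CF-KI classes and to between 3271 and 6722 CPM in the 8 other control classes, and none of them was at 0 in any of these classes. Erythroid markers summed to 20676 CPM in CF-KI versus 275 CPM in control adipocyte-like nuclei, and to 4205 and 882 CPM in endothelial-like nuclei. Pericyte markers summed to 4009 and 2757 CPM in endothelial-like nuclei. The part of these markers in the ratios of adipocyte-like and endothelial-like nuclei was not tested. From such markers of other types, the share of free RNA was estimated at 18.3% of UMIs in CF-KI and 8.51% in control cardiomyocyte-like nuclei. In the 8 other classes the estimate used the 8 cardiomyocyte markers alone, so it is not the same measure there. It was 44.6% and 31.2% in endothelial-like nuclei. Over the 9 classes the estimates ran from 18.3% to 82.3% (macrophage-like) in CF-KI, against 8.51% to 31.2% in the control.

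One gene's UMIs can be set against those of another gene of the same source class. Per 100 UMIs of Myl2, the ventricular myosin light chain gene, Fabp3 had 40.7 UMIs in CF-KI cardiomyocyte-like nuclei. It had 39.2 in adipocyte-like nuclei and between 34.3 and 37.9 in the 7 remaining classes. The control values were 50.9 in cardiomyocyte-like nuclei, 38.2 in adipocyte-like nuclei and between 34.1 and 56.9 in those 7 classes. The CPM of Fabp3 thus differed between classes together with that of Myl2. The 3 genes whose pattern over the 18 class and library values was most like Fabp3 were Mb (Pearson r 0.99), Myl2 (0.99) and Cox6a2 (0.98), the genes of myoglobin, the same light chain and a muscle subunit of cytochrome oxidase. How much of the Fabp3 in non-muscle classes was free RNA was not tested beyond these values.

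**Figure D2:**
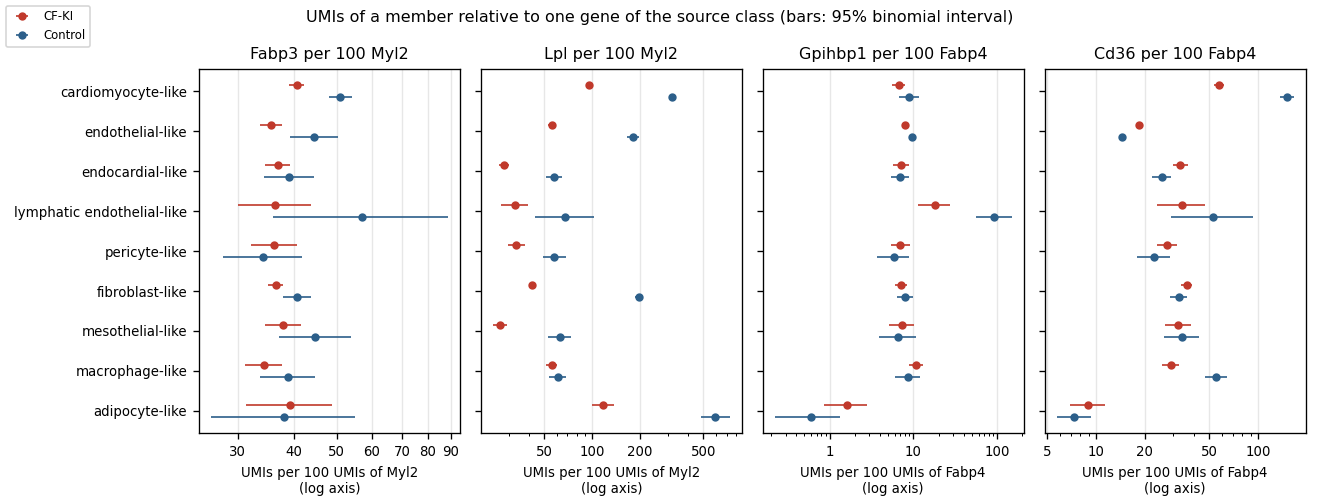
UMIs of Fabp3 and Lpl per 100 UMIs of Myl2, and of Gpihbp1 and Cd36 per 100 UMIs of Fabp4, in 9 nucleus classes (log axes, bars for the 95% binomial interval, CF-KI red, control blue). Fabp3 stays between 34.3 and 40.7 in all CF-KI classes, while Lpl per Myl2 and Cd36 per Fabp4 differ widely between classes.

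Lpl did not follow Myl2 in this way. In CF-KI it had 96.3 UMIs per 100 of Myl2 in cardiomyocyte-like nuclei and between 26.4 and 55.7 in the 7 classes, and in the control 319 and between 57.8 and 196. In cardiomyocyte-like nuclei, Gpihbp1 had 6.70 UMIs per 100 UMIs of Fabp4 in CF-KI (5.57 to 8.01) and 8.93 in the control (6.76 to 11.6). The endothelial-like values were 8.02 (7.69 to 8.36) and 9.74 (9.26 to 10.2). The highest Gpihbp1 values were in lymphatic endothelial-like nuclei, at 18.0 in CF-KI and 92.1 in the control (35 Gpihbp1 and 38 Fabp4 UMIs). Rbp7 had 2.63 per 100 of Fabp4 in CF-KI and 3.51 in control cardiomyocyte-like nuclei, against 2.28 and 2.69 in endothelial-like nuclei, with overlapping intervals in both libraries. Cd36 stood apart, with 57.7 UMIs per 100 of Fabp4 in CF-KI and 151 in control cardiomyocyte-like nuclei, against 18.5 and 14.6 in endothelial-like nuclei.

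The comparison of the libraries in cardiomyocyte-like nuclei is given beside those values. There, 5 of the 9 members (Gpihbp1, Fabp4, Fabp5, Rbp7 and Fabp3) had a log2 ratio of at least 1, against 10.1% of the 12024 genes with at least 20 UMIs. None had a ratio of −1 or less, against 2.08% of those genes, and the member median was 1.46 against a median of 0.16 over all genes. The free RNA estimate alone gave 609 CPM of Fabp4, 47.5 CPM of Gpihbp1 and 13.5 CPM of Rbp7 in CF-KI cardiomyocyte-like nuclei, each above the level measured (461, 30.9 and 12.1 CPM). The control estimates were 134, 12.1 and 3.28 CPM, beside 121, 10.8 and 4.25 CPM measured. Gpihbp1 and Fabp4 thus had no UMIs left in either library after this estimate was subtracted, and Rbp7 had none left in CF-KI. With all 9 counted and 0.5 UMIs added, the median in cardiomyocyte-like nuclei was then −0.07, a change of sign. Over the 6 members other than Gpihbp1, Fabp4 and Rbp7 it was −0.17. This set leaves out members whose ratios were at least 1, so −0.17 is not comparable with 1.46. Without subtraction, the 6 had ratios of −0.91 (Slc27a1), −0.50 (Vldlr), 0.05 (Lpl), 0.54 (Cd36), 1.46 (Fabp3) and 2.07 (Fabp5). Slc27a1 and Vldlr, with estimates of 9.88 and 35.2 CPM in CF-KI, had ratios of −0.99 and −0.57.

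In a finer clustering the cardiomyocyte-like nuclei of the 2 libraries fell largely into different groups. One group held 2271 CF-KI and 75 control nuclei, the next 31 and 1023, and another 24 and 980, beside the atrial group and a small one of 33 and 24 nuclei. Vldlr was lower in CF-KI within the first group, at 388 CPM against 658 CPM (log2 ratio −0.76, −1.04 to −0.47), and within the second (−0.82, −1.40 to −0.30), while its ratio in the group of 24 and 980 nuclei was −0.04 (−0.80 to 0.63). Slc27a1 read 103 CPM in CF-KI versus 140 CPM in the control in the first group (−0.44, −1.04 to 0.21), an interval that includes 0, and its ratio was −1.36 (−2.68 to −0.31) in the second and −1.18 (−3.47 to 0.38) in the group of 24 and 980. Directions of other members turned within the first group. Fabp3 was lower in CF-KI there (873 against 1072 CPM, −0.30, −0.51 to −0.07), as were Cd36 (272 against 443 CPM, −0.70, −1.04 to −0.35) and Lpl (2059 against 3046 CPM, −0.56, −0.69 to −0.43). In the second group and in that of 24 and 980 nuclei the Fabp3 ratios were 0.55 and 1.01, each with its whole interval above 0. Fabp4 was higher in CF-KI in all 5 groups with the whole interval above 0, from 0.97 in the first to 1.87 in the small one. The sizes of the ratios over all cardiomyocyte-like nuclei thus compare nuclei of mostly different groups.

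**Figure D3:**
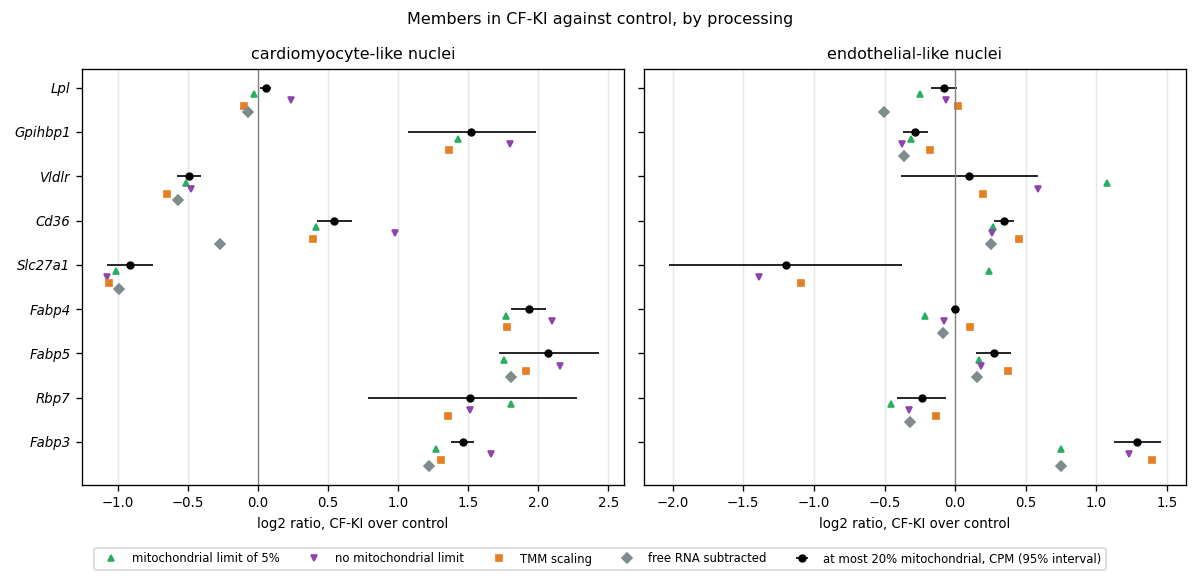
Log2 ratio of CF-KI over control for each gene in cardiomyocyte-like (left) and endothelial-like nuclei (right). Black points with bars are the ratios of CPM with 95% intervals, and coloured symbols are the same ratios with a 5% mitochondrial limit, with no limit, with TMM scaling and after free RNA was subtracted (no symbol where a library was left with 0). Slc27a1 and Vldlr lie below 0 on the left under all settings drawn, and Lpl and Cd36 fall on both sides of 0.

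The mitochondrial share of a barcode moved with several members inside the same class, which was examined in 5 strata after clustering without a mitochondrial limit. In control cardiomyocyte-like nuclei, Fabp3 read 281 CPM at up to 1% mitochondrial UMIs, 489 at 1 to 5%, 1248 at 5 to 10%, 3305 at 10 to 20% and 3884 CPM over 20%. In CF-KI it read 510, 786, 1198, 2686 and 4561 CPM in the same strata. The higher the mitochondrial share, the higher Fabp3 was in both libraries. The libraries filled the strata unequally, with 106 CF-KI and 1810 control nuclei up to 1% and 1564 and 343 nuclei at 1 to 5%. Within strata the log2 ratio of Fabp3 was 0.86, 0.68, −0.06, −0.30 and 0.23, compared with 1.46 over all kept cardiomyocyte-like nuclei.

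Slc27a1 was lower in CF-KI in 5 of 5 strata of cardiomyocyte-like nuclei, with log2 ratios of −0.94, −1.04, −1.09, −0.63 and −1.70 and 4 intervals below 0. In the 2 strata up to 5% it read 96.3 and 97.5 CPM in CF-KI versus 185 and 200 CPM in the control, and the intervals did not overlap. In the nuclei of the main clustering at 10 to 20%, of which 13 were control nuclei, the Slc27a1 ratio was 0.92. Vldlr was also lower in 5 of 5 strata (−0.49, −0.69, −0.53, −0.03 and −0.48), with 4 intervals below 0. Lpl was lower in 5 of 5 strata by small amounts (−0.06 to −0.20), with 2 intervals below 0. Fabp4 was higher in 4 of 5 strata, and Cd36 ranged from −0.87 to 0.43.

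**Figure D4:**
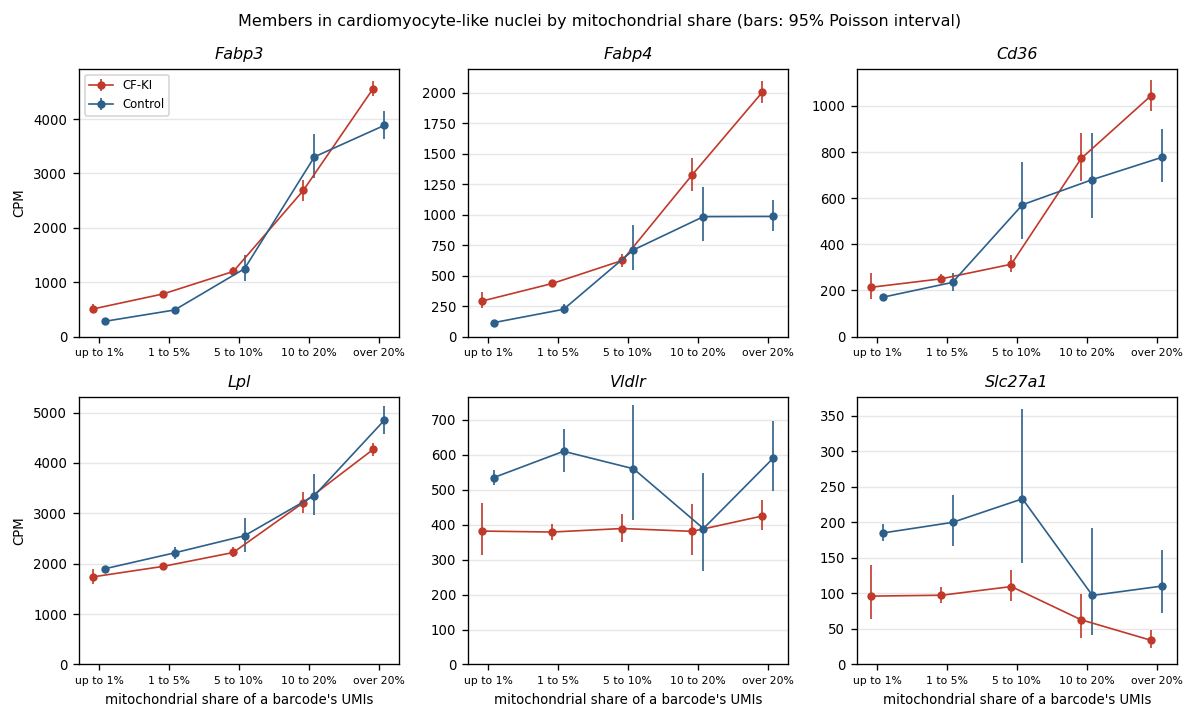
Level (CPM) of 6 members in cardiomyocyte-like nuclei by the mitochondrial share of the barcode, CF-KI red and control blue, bars for the 95% Poisson interval. Fabp3 climbs with the share in both libraries from 510 to 4561 CPM in CF-KI, and from 281 to 3884 CPM in the control, while Slc27a1 lies lower in CF-KI in every stratum.

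In endothelial-like nuclei the members differed less between the libraries. Their median log2 ratio was −0.00044, against −0.07 over the 9969 genes with at least 20 UMIs. Fabp3, with 1.29 (1.13 to 1.46), was the only member at 1 or more, against 2.69% of genes, and Slc27a1, with −1.20 (−2.03 to −0.38, 24 and 31 UMIs), was the only one at −1 or less, against 3.44%. Cd36 and Fabp5 (0.27, 0.15 to 0.40) were above 0, and Gpihbp1 and Rbp7 below it, each with its whole interval. Median mitochondrial shares of these nuclei were 10.6% in CF-KI versus 3.86% in the control. In 4 strata with nuclei of both libraries, Cd36 was higher in CF-KI in 3 (0.52, 0.58 and 0.48) and −0.17 over 20%. Gpihbp1 ranged from −0.61 to 0.03 and Rbp7 from −0.23 to 1.20 over the same strata. The Slc27a1 ratio turned to 0.24 with a mitochondrial limit of 5%, which left 97 CF-KI endothelial-like nuclei. With the 20% limit, measured Slc27a1 was below its free RNA estimate in both libraries.

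In each of the 7 other classes, between 2 and 6 of the members with at least 20 UMIs had a log2 ratio of 1 or more. They were 6 of 9 in fibroblast-like nuclei, against 5.20% of all genes, 6 of 9 in pericyte-like nuclei, against 12.0%, and 6 of 8 in macrophage-like nuclei, against 9.05%. In endocardial-like nuclei they were 3 of 9, against 6.58%, in mesothelial-like nuclei 3 of 8, against 6.33%, in lymphatic endothelial-like nuclei 4 of 7, against 9.94%, and in adipocyte-like nuclei 2 of 7, against 10.1%. Fabp3 was among them in each of these 7 classes. The free RNA estimate was higher in CF-KI than in the control in each of these classes, and its part in these counts was not tested.

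Endothelial-like nuclei consisted of 2 clusters. One, of 936 CF-KI and 394 control nuclei, was led by Rgcc, Car4 and other capillary genes, and its 5 capillary markers summed to 4221 and 6068 CPM. The second, of 358 and 404 nuclei, had 1123 and 1992 CPM of these markers, although 1 of them, Aplnr, was among its own leading genes. The 6 venous markers summed to 182 and 233 CPM in the first cluster and to 416 and 504 CPM in the second. For the 7 arterial markers the sums were 587 and 789 CPM in the first and 157 and 323 CPM in the second. Fabp4 read 20716 and 24339 CPM in the first cluster and 4717 and 4549 CPM in the second. Cd36 read 3781 and 3356 CPM in the first and 1141 and 1060 CPM in the second. Gpihbp1 showed 1630 and 2242 CPM in the first and 532 and 718 CPM in the second, and Rbp7 484 and 696 CPM against 52.5 and 32.9 CPM. The clusters thus split the capillary members in the same direction in both libraries, and the first cluster made up a larger part of the CF-KI class. The 8 cardiomyocyte markers moved with this split, at 8186 and 4533 CPM in the first cluster and 19383 and 11370 CPM in the second, as did the median depth, at 1433 and 1342.5 UMIs per nucleus in the first and 702.5 and 636 in the second. Their part in the split was not tested. Within the first cluster, Fabp4 (log2 ratio −0.23, −0.26 to −0.20), Gpihbp1 (−0.46, −0.56 to −0.36) and Rbp7 (−0.52, −0.70 to −0.35) were lower in CF-KI, while Cd36 was higher (0.17, 0.10 to 0.24). In the second cluster Gpihbp1 was also lower in CF-KI (−0.43, −0.74 to −0.13). The intervals of Fabp4 (0.05, −0.06 to 0.16), Rbp7 (0.67, −0.58 to 1.99) and Cd36 (0.11, −0.12 to 0.33) included 0 there. Lpl was lower in CF-KI in the first cluster (−0.18, −0.29 to −0.07) and higher in the second (0.24, 0.05 to 0.43). In a finer clustering the groups of endothelial-like nuclei followed the libraries, so arterial, capillary and venous zones were not compared.

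Genes with the most similar pattern differed between members. For Gpihbp1 they were Pcdh17, Dll4 and Tspan13 (Pearson r 0.97, 0.96 and 0.95 over the 18 class and library values, which share libraries and depth). Rbp7 was most like Egln1 (0.96), Cmtm8 (0.96) and Gpihbp1 itself (0.95). Cd36 followed Pnkd, Depp1 and Cxcl9 (0.95, 0.94 and 0.93), and Fabp4 followed Rgcc, Ldha and Aqp7 (0.95, 0.91 and 0.91). Slc27a1 was most like Mlxipl, Sirt3 and Fam13a (0.97, 0.95 and 0.94), and Vldlr most like Syde2, Asb14 and BB218582 (0.94, 0.93 and 0.93). The closest genes for Fabp5 were Ppp6c, Ttll7 and Nop10 (all 0.89) and for Lpl Ppp1r3c, Inafm2 and Mrpl41 (all 0.82), the weakest likeness of the 9.

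Around the members, 73 further genes of fatty acid handling were followed in 5 groups by role. In cardiomyocyte-like nuclei 67 of them had at least 20 UMIs, 13 with a log2 ratio of at least 1 and 2 at −1 or less, and their median was 0.23. Over all genes of that depth the shares were 10.1% and 2.08% and the median was 0.16, so the share at −1 or less was near that of all genes. Angptl4, whose protein inhibits lipoprotein lipase, was the lowest at −1.58 (−2.58 to −0.68), with 13 CF-KI and 52 control UMIs. Gpam, which starts glycerolipid synthesis, followed at −1.20 (−1.45 to −0.95), and Acacb, which makes the malonyl-CoA that restrains mitochondrial fatty acid entry, at −0.995 (−1.17 to −0.82). Cav2, a caveolar coat gene, was highest at 2.58 (1.62 to 3.67, 49 and 11 UMIs), then Dbi, which binds acyl-CoA (1.94, 1.66 to 2.23), and Meox2, an endothelial transcription factor gene (1.75, 0.50 to 3.14, 20 and 8 UMIs). By role, 6 of the 23 genes of mitochondrial entry and oxidation were at 1 or more (median 0.52), as were 5 of 11 of transport and activation (0.36), 1 of 8 of lipase and lipoprotein binding (0.55), 1 of 12 of transcriptional control (−0.01) and none of 13 of storage and release (−0.05). In the same nuclei the 8 endothelial markers summed to 200 CPM in CF-KI versus 84.0 CPM in the control. The part of free RNA in the ratios of these genes was not tested.

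In endothelial-like nuclei 65 of the 73 had enough UMIs, 4 at 1 or more and 2 at −1 or less, with a median of 0.11. Over all genes the shares were 2.69% and 3.44% and the median −0.07, so the 2 genes at −1 or less were no larger a part than among all genes. Angptl4 was again lowest, at −1.68 (−2.66 to −0.76, 16 and 29 UMIs), followed by Apln, a peptide signal of endothelium (−1.20, −2.20 to −0.22), and Dgat1, the last enzyme of triglyceride synthesis (−0.83, −1.96 to 0.31). The highest were 3 genes of mitochondrial oxidation, Decr1 (1.32, 0.76 to 1.93), Acadm (1.29, 0.99 to 1.60) and Etfa (1.19, 0.82 to 1.58). All 4 of the genes at 1 or more belonged to mitochondrial entry and oxidation, whose 23 genes had a median of 0.70. Mitochondrial and cardiomyocyte marker RNA moved with this group, and their part in it was not tested.

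**Figure D5:**
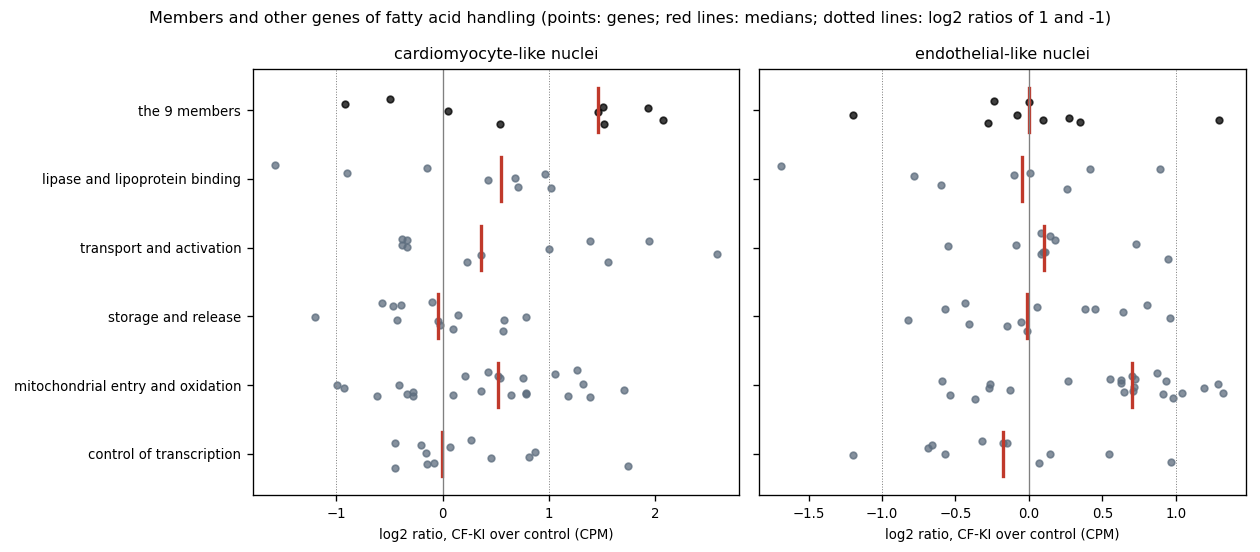
Log2 ratio of CF-KI over control for the 9 members (black) and for other genes of fatty acid handling by role (grey), in cardiomyocyte-like (left) and endothelial-like nuclei (right), with group medians in red. The medians of mitochondrial entry and oxidation are 0.52 and 0.70, and those of storage and release −0.05 and −0.01.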

How the data were processed

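The values deposited by the authors are raw counts of UMIs, 1 matrix of genes by barcodes per library. Cell Ranger 6.1.1 and the build mm10 are named in the submitters' processing notes, and the cell-calling settings are not given in the sources used here. Features sharing a symbol were summed. Of 32285 features, 32158 (99.6%) matched GENCODE vM21 by identifier, which gave the positions. All deposited columns were mapped to a sample.

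Kept barcodes had 200 genes or more and no more than 20% mitochondrial UMIs. A limit of 5% removed far more of CF-KI than of the control (2263 and 6837 barcodes left) and was an alternative. Doublets were scored with Scrublet (scanpy 1.11.5). Its automatic threshold called 650 and 299 barcodes and proved unstable, so the highest scores were removed at 0.8% per 1000 barcodes (1097 and 963 barcodes), a choice made after seeing the data. Nuclei of both libraries were clustered together with leidenalg 0.10.2 (2000 variable genes, 30 principal components, 15 neighbours, resolution 0.8), leaving members and pathway genes out of the variable genes and marker lists. A cluster was named from 18 marker lists when 3 or more of its markers exceeded the other nuclei by a log2 fold of 1 and occurred in 5% of nuclei or more. Atrial and ventricular lists were used within cardiomyocyte-like nuclei only, also decided after seeing the data.

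UMIs were summed per class and library. Levels have exact Poisson intervals, and log2 ratios (CF-KI over control, no UMIs added) have conditional exact binomial intervals. For medians and for counts of genes past a log2 ratio, 0.5 UMIs were added to each count. In the groups by role, counts under 3 were set to 3 instead. Shares of nuclei have Clopper-Pearson intervals. The limit for a count of 0 is 3 UMIs. The free RNA share of a class is the median, over a set of marker genes, of their level in the class over that in the whole library. For cardiomyocyte-like nuclei the set was 53 (CF-KI) and 55 (control) markers of other cell types. For every other class it was the 8 cardiomyocyte markers, so that only cardiomyocyte RNA enters the estimate. Subtraction removed this share of each member's whole-library level, with class totals left as they were. TMM (edgeR 4.0.16) and median-of-ratios (DESeq2 1.42.0) factors, computed in R 4.3.3, served as alternative scalings, without tests. The intervals of the log2 ratios were computed on simulated Poisson counts for cardiomyocyte-like and endothelial-like nuclei, where 96.2% and 94.4% held the true value. The other intervals were not checked in this way. These intervals assume Poisson counts, and the simulation had no free RNA and no variation between nuclei or libraries. It therefore checks the computation only and says nothing about the spread of real libraries.

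All 9 members are named in the text. Likeness is the Pearson r of log2(CPM + 10) over class and library values. The 3 highest and 3 lowest pathway genes with at least 20 UMIs are named in cardiomyocyte-like and endothelial-like nuclei. The members and lists were chosen with earlier results of these data known.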

Additional observations from a re-analysis of the deposited data

Results flagged for a closer look

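Gpihbp1 differed in opposite directions in the 2 classes compared most closely. Its log2 ratio of CF-KI over control was 1.52 in cardiomyocyte-like nuclei and −0.28 in endothelial-like nuclei, with counting intervals on opposite sides of 0. Rbp7 did the same, with 1.51 and −0.24. With 1 library per genotype these differences between classes were not tested. The level expected from free RNA in CF-KI cardiomyocyte-like nuclei was above the measured level for both genes.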

How the results depend on the processing

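The member median in cardiomyocyte-like nuclei was 1.46. It was 1.27 with a mitochondrial limit of 5%, 1.13 with at least 500 genes, 0.32 in nuclei at 5 to 10% mitochondrial UMIs and 0.074 at 10 to 20%. It was 1.30 with TMM, 1.26 with median-of-ratios scaling, 0.91 as UMIs per nucleus, 1.07 after thinning to 500 UMIs and 1.00 over members with at least 100 UMIs. It turned to −0.074 with free RNA subtracted. That median counts all 9 members, although Gpihbp1, Fabp4 and Rbp7 had 0 left in at least 1 library and enter there with the added 0.5 UMIs alone. Over the 6 other members it was −0.17, an alternative chosen after seeing the data. The members left out there had ratios of 1.52 (Gpihbp1), 1.93 (Fabp4) and 1.51 (Rbp7), so −0.17 is not comparable with 1.46. The endothelial-like median of −0.00044 changed sign with the setting: 0.17 with the 5% limit, −0.065 with no limit, −0.14 with at least 500 genes and 0.12 with libraries clustered alone. It was 0.33 at 5 to 10%, 0.066 at 10 to 20%, 0.10 with TMM, 0.089 with median-of-ratios, 0.13 per nucleus, −0.32 with free RNA subtracted (−0.084 over the 7 members left with UMIs in both libraries), 0.20 after thinning and 0.045 over members with at least 100 UMIs. TMM and median-of-ratios shifted every ratio by −0.15 and −0.20 in cardiomyocyte-like and by 0.10 and 0.089 in endothelial-like nuclei. The cause of the other differences was not tested.

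Of 243 combinations of a member's ratio in these 2 classes and a setting, 28 had the opposite sign. Of these, 16 concerned a ratio whose counting interval lay on 1 side of 0, and the others were Fabp4, Lpl and Vldlr in endothelial-like nuclei, whose intervals included 0. Among the combinations beside those 16, 147 stayed within the counting interval and 80 moved outside it. Lpl in cardiomyocyte-like nuclei, at 0.05, changed sign most often: −0.033 with the 5% limit, −0.12 and −0.49 at 5 to 10% and 10 to 20%, −0.10 with TMM, −0.15 with median-of-ratios, −0.49 per nucleus and −0.074 with free RNA subtracted. Cd36 there turned to −0.56 and −0.093 at 5 to 10% and 10 to 20%, −0.0012 per nucleus and −0.27 with free RNA subtracted. At 10 to 20%, with 13 control nuclei, Slc27a1 turned to 0.92 and Rbp7 to −2.78. In endothelial-like nuclei Slc27a1 was 0.24 with the 5% limit, and Gpihbp1 and Rbp7 were 0.059 and 1.20 at 5 to 10%. No paired analysis was possible because each genotype has 1 library.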
